A study of Caenorhabditis elegans with 12 samples.

Results

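The genes of the cytosolic ribosome were followed in late L4 Caenorhabditis elegans that lack 1 or more microRNAs of the miR-58 family. Members were taken by name, as every gene listed as rpl or rps followed by a number, which gave 76 of 16309 listed genes, 45 of the large and 31 of the small subunit. The wild type was N2 Bristol. Strain MT15024 carries mir-58(n4640) on chromosome IV and is called the mir-58 mutant here. Strain MT18409, the double mutant, carries the same allele with nDf53 on chromosome III, the deletion for mir-80. Strain MT15563, the quadruple mutant, carries both of these and nDf54 on chromosome X, the deletion for mir-81 and mir-82. Every mutant thus has the mir-58 allele. Each genotype is given as 1 strain with 3 samples of whole animals raised on light-labelled bacteria, and the labels do not say whether the 3 were separate cultures, so a p-value may measure technical spread. Wild type and mir-58 animals were collected 33 h after transfer to food, and the multiple mutants, which develop more slowly, later than wild type, by 6 h for the double and by 15 h for the quadruple mutant. Genotype and time of collection therefore cannot be told apart in the multiple mutants.

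A ribosome joins a small subunit, which reads the messenger RNA, to a large subunit, which links amino acids and holds the tunnel through which the new chain leaves. Each subunit is ribosomal RNA dressed with many small proteins, most of them present in a single copy, so their genes are usually expressed in proportion to each other. In worms, growth through the larval stages and the expansion of the germ line both call for large numbers of ribosomes.

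The values are the log2 fold changes of each mutant against wild type and the adjusted p-values of the authors' deposited table. A gene is called, and said to have risen or fallen, where that adjusted p-value is under 0.05. No values of single samples were analysed, which leaves levels and replicate errors out, and the adjusted p-value is the only measure of error. All 3 comparisons use the same wild type samples. Values given in threes below follow the order mir-58, double, quadruple. Because whole animals were sampled, a lower value can mean less RNA per cell or fewer cells with that RNA, which cannot be told apart.

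In every mutant the median of the ribosomal protein genes lay slightly below wild type, while a minority of genes stood far from this level, in both directions. The median log2 fold change of the 76 genes was -0.34 for mir-58, -0.46 for the double and -0.43 for the quadruple mutant, against -0.06, 0.08 and 0.11 for all listed genes. In all 3 mutants at once, 28 of the 76 genes lay within 0.25 of the family median, with values from -0.57 to -0.14, from -0.70 to -0.30 and from -0.62 to -0.19. These included rpl-3, near the catalytic centre, rpl-5, which binds the 5S RNA, rps-3, at the entry of the messenger RNA, and rps-0 and rps-1. The authors' deposited table gives rpl-3 at -0.34, -0.37 and -0.33, and rps-3 at -0.40, -0.37 and -0.28, none of them called. Of the 28, only rpl-30 in mir-58 and rpl-11.2 in both multiple mutants were called, all lower. Taken by mutant, 56.6%, 46.1% and 51.3% of members lay within 0.25 of their median. Of all listed genes 44.8%, 32.8% and 27.3% lay this close to theirs. At the other end, 29 of the 76 genes differed from wild type by at least 2-fold in 1 or more mutants. In mir-58 alone 19 of 76 did, a larger share than the 2119 of 16309 listed genes. The shares were 23.7% beside 20.1% of all genes in the double, and 22.4% beside 26.1% in the quadruple mutant. Large changes were thus not more frequent than the background in the quadruple mutant. Extremes ran from -2.65 to 3.49 (mir-58), from -2.41 to 3.16 (double) and from -4.54 to 3.58 (quadruple).

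**Figure D1:**
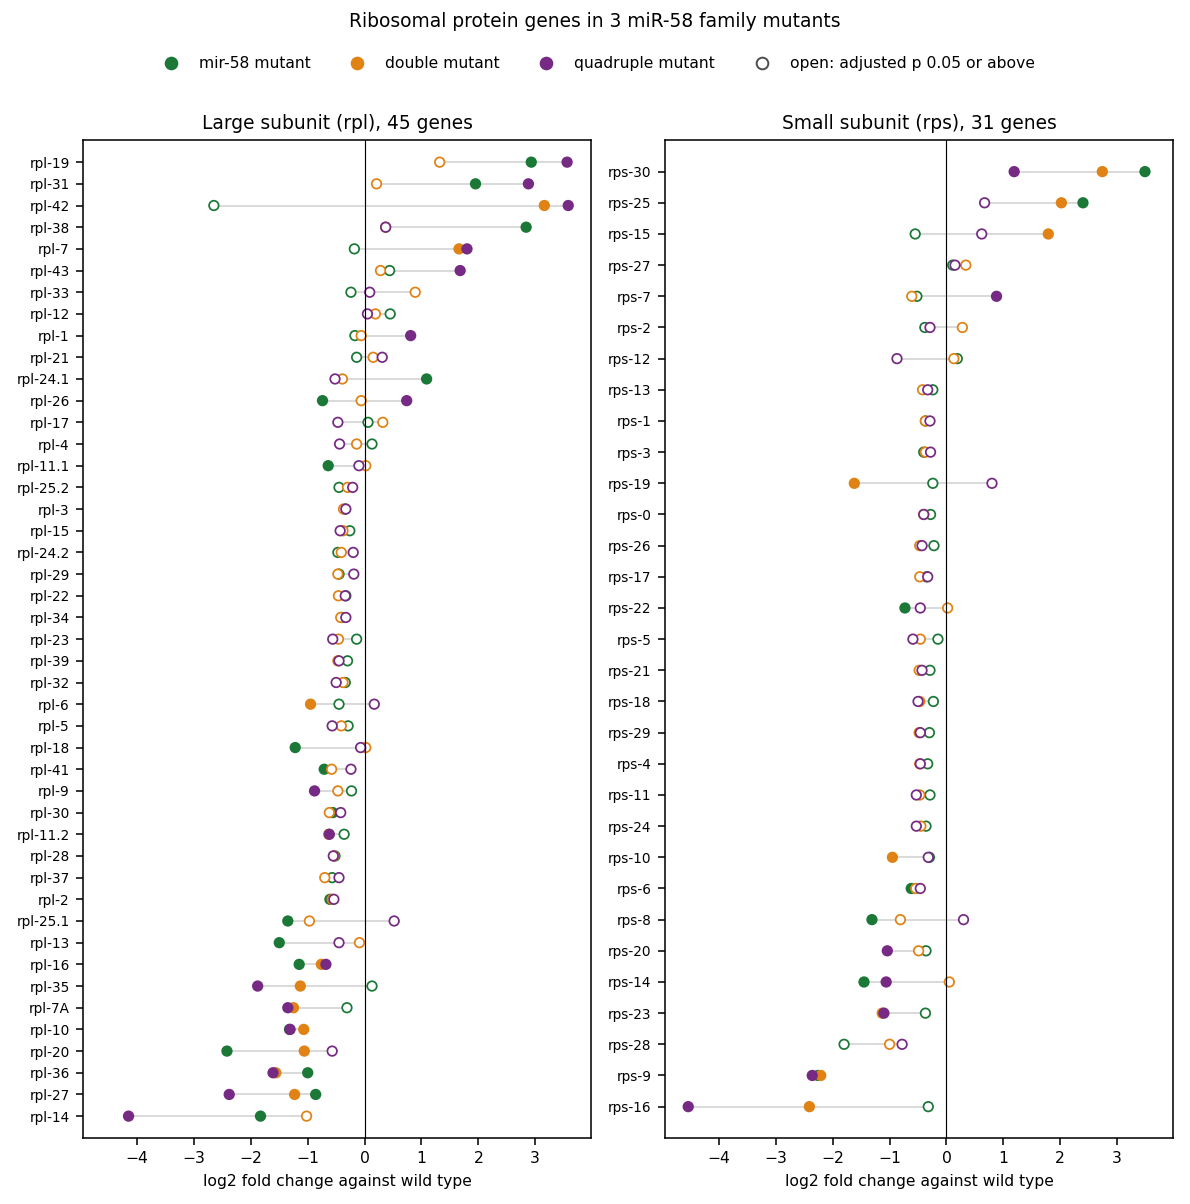
Log2 fold change against wild type (horizontal axis) of each ribosomal protein gene, large subunit on the left and small on the right, ordered by the mean of the 3 mutants. Filled points have an adjusted p-value under 0.05. In each mutant most points are open, and many of these lie just below 0. The genes rpl-19, rpl-31, rps-30 and rps-25 reach far to the right, and rpl-14, rps-16 and rps-9 far to the left.

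In mir-58, 6 members rose and 19 fell, which is 7.89% and 25% of the family, beside 1.65% and 5.79% of all listed genes. The double mutant had 5 higher and 14 lower members, or 6.58% and 18.4%, beside 10.5% and 5.86% of all genes. In the quadruple mutant 9 rose and 14 fell, or 11.8% and 18.4%, beside 14.2% and 9.82% of all genes. The share of higher calls was thus above the background in mir-58 and not in either multiple mutant, and the share of lower calls was above it in all 3. Shares are descriptions, since the genes were chosen with earlier results known and are usually co-expressed. At an adjusted p under 0.01, 6 rose and 14 fell in mir-58 (0.907% and 3.71% of all genes), 5 and 9 for the double (8.25% and 3.49%) and 6 and 11 for the quadruple mutant (11.1% and 6.32%). A minimum change of 1.5-fold left 6 and 18 calls in mir-58 (1.60% and 5.33% of all genes) and changed no count in the double (10.5% and 5.86%) or quadruple mutant (14.2% and 9.82%). Over the 3 mutants 41 members were called at least once (53.9%, beside 27.1% of all genes): 21 in 1 mutant, 14 in 2 and 6 in all 3.

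Among large subunit genes, those for proteins at the exit of the nascent chain tunnel included both high and low values. This group of 10 genes was put together from textbook structure after the values were seen. Its values spanned -1.35 to 2.93 (mir-58), -1.13 to 1.32 (double) and -1.88 to 3.56 (quadruple). High and low values were not particular to this group. The 5 small subunit genes for entry and decoding of the messenger RNA spanned -2.26 to 3.49, -2.21 to 2.74 and -2.36 to 1.19. Of the 10, 2 rose and 2 fell in mir-58, 1 fell in the double, and 3 rose and 1 fell in the quadruple mutant. With 10 genes 1 call is 10%, and all genes had 10.5% higher and 5.86% lower calls in the double and 14.2% and 9.82% in the quadruple mutant. The authors' deposited table gives rpl-19, a protein of the tunnel exit that also touches the small subunit, at 2.93, 1.32 and 3.56 (adjusted p = 3.12e-15, 0.0526 and 1.30e-19). It rose in mir-58 and the quadruple mutant, and in the double mutant it was just above the threshold. Its neighbour at the rim, rpl-31, showed 1.95, 0.21 and 2.88 by the authors' deposited table (adjusted p = 5.27e-08, 0.910 and 1.20e-13), again with calls in the same 2 mutants. For rpl-35, next to the docking site of the signal recognition particle, the authors' deposited table has 0.13, -1.13 and -1.88, and it fell in both multiple mutants (adjusted p = 7.43e-03 and 1.94e-05). The rim gene rpl-26 is the only member with opposite calls: it fell in mir-58, at -0.74, stood at -0.06 in the double and rose in the quadruple mutant, at 0.74, according to the authors' deposited table (adjusted p = 0.0411, 1 and 0.0254). Of the tunnel genes, rpl-4, rpl-17, rpl-22, rpl-25.2 and rpl-39 were called in no mutant.

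The lowest large subunit value in the quadruple mutant was that of rpl-14, which stood at -1.83, -1.02 and -4.15 by the authors' deposited table (adjusted p = 1.25e-12, 0.0764 and 3.23e-17). It fell in mir-58 and the quadruple mutant, the same pair of strains in which rpl-19 and rpl-31 rose. The authors' deposited table puts rpl-27 at -0.86, -1.23 and -2.38 (adjusted p = 1.46e-05, 2.80e-05 and 2.33e-14), lower in every mutant and lowest in the quadruple. Also lower in every mutant was rpl-36, at -1.0, -1.56 and -1.61 according to the authors' deposited table. For rpl-10, which in yeast joins the large subunit late in its maturation, the authors' deposited table gives -1.32, -1.07 and -1.31, nearly the same in each strain (adjusted p = 4.85e-08, 2.49e-03 and 2.48e-04). The gene rpl-16, also lower throughout, stood at -1.15, -0.76 and -0.68 by the authors' deposited table. By contrast rpl-20 was lowest in mir-58, with -2.42, -1.06 and -0.57 according to the authors' deposited table, and its calls ended with the double mutant (adjusted p = 3.42e-14, 0.0269 and 0.266). The genes rpl-13 and rpl-18 fell in mir-58 alone, at -1.5 and -1.22 there and between -0.45 and 0.02 in the multiple mutants by the authors' deposited table. Whether these differ between strains was not tested.

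Higher large subunit genes outside the tunnel group followed no common order of strains. The authors' deposited table lists rpl-38, which in mice affects translation of Hox messenger RNAs, at 2.84, 0.37 and 0.37, with a call in mir-58 only (adjusted p = 7.18e-14). A bridge protein between the subunits, rpl-24.1, likewise rose in mir-58 only, at 1.09, -0.39 and -0.52 according to the authors' deposited table. The reverse was seen for rpl-7, at -0.18, 1.66 and 1.80 by the authors' deposited table, which rose in both multiple mutants (adjusted p = 5.90e-05 and 5.65e-06). The widest swing was that of rpl-42, at -2.65, 3.16 and 3.58 according to the authors' deposited table, and here -2.65 was not called (adjusted p = 0.464) while the positive values were (adjusted p = 3.41e-03 and 1.83e-04). In the quadruple mutant alone, rpl-43 rose to 1.68 and rpl-1, the protein of the mobile stalk beside the exit site for transfer RNA, to 0.81 by the authors' deposited table (adjusted p = 8.57e-04 and 0.0279). Lower calls of the large subunit not yet named were rpl-2, rpl-11.1, rpl-25.1, rpl-30 and rpl-41 in mir-58, rpl-6 in the double, rpl-7A and rpl-11.2 in both multiple mutants and rpl-9 in the quadruple, between -1.35 and -0.56.

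A few small subunit genes stood far above or below wild type. The highest was rps-30, whose product in humans is made as a fusion with a ubiquitin-like protein. It rose in all 3 mutants, at 3.49, 2.74 and 1.19 according to the authors' deposited table (adjusted p = 6.94e-34, 2.42e-14 and 0.0287). Beside it, rps-25, which in yeast and human cells is needed for initiation at certain viral internal entry sites, stood at 2.40, 2.02 and 0.67 by the authors' deposited table. By the authors' deposited table it rose in mir-58 and the double mutant (adjusted p = 8.45e-17 and 2.93e-08) and was not called in the quadruple (adjusted p = 0.286). For both genes the value was highest in mir-58 and lowest in the quadruple mutant. The only other small subunit genes that rose were rps-15, at 1.79 in the double mutant (adjusted p = 6.33e-07), and rps-7, at 0.88 in the quadruple (adjusted p = 3.11e-03), according to the authors' deposited table.

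On the lower side, rps-9, which lines the entry channel of the messenger RNA, had almost the same value in every strain, -2.26, -2.21 and -2.36 by the authors' deposited table (adjusted p = 5.76e-27, 1.50e-11 and 5.90e-12). A different course was that of rps-16, whose tail reaches the transfer RNA in the peptidyl site: -0.32, -2.41 and -4.54 according to the authors' deposited table. By the authors' deposited table it was not called in mir-58 (adjusted p = 0.492) and fell in both multiple mutants (adjusted p = 3.50e-14 and 1.01e-29). The decoding site gene rps-23 also fell in both, at -1.13 and -1.10 by the authors' deposited table, against -0.37 without a call in mir-58. The authors' deposited table has rps-14, a protein of the platform, at -1.45, 0.05 and -1.06, lower in mir-58 and the quadruple mutant (adjusted p = 1.17e-07 and 3.70e-03). In the double mutant rps-19, mutated in human Diamond-Blackfan anaemia, fell to -1.62 according to the authors' deposited table (adjusted p = 4.29e-03), while its 0.80 in the quadruple was not called (adjusted p = 0.0712). Lower calls in 1 mutant were further found for rps-8, rps-22 and rps-6, the substrate of S6 kinase, in mir-58 (-1.31, -0.73 and -0.62 by the authors' deposited table), rps-10 in the double (-0.95) and rps-20 in the quadruple (-1.04). The other 17 small subunit genes were called in no mutant.

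Over all members, large and small subunit genes had close medians. The large subunit stood at -0.36 and the small at -0.33 for mir-58, at -0.41 and -0.47 for the double, and at -0.42 and -0.43 for the quadruple mutant. Calls were spread over both: 27 of 45 large subunit genes (60.0%) and 14 of 31 small subunit genes (45.2%) were called at least once, beside 27.1% of all listed genes. In mir-58, 4 large subunit genes rose and 14 fell (8.89% and 31.1%), against 2 and 5 of the small subunit (6.45% and 16.1%). Of all genes 1.65% rose and 5.79% fell. The double mutant had 2 higher and 9 lower genes of the large (4.44% and 20.0%) and 3 and 5 of the small subunit (9.68% and 16.1%). Beside the 10.5% and 5.86% of all genes, neither subunit had more higher calls than the background. In the quadruple mutant the counts were 7 and 9 for the large (15.6% and 20.0%) and 2 and 5 for the small subunit (6.45% and 16.1%). All genes had 14.2% and 9.82%, so the higher share of the large subunit was near the background. The middle of the small subunit was narrower, with an interquartile range of 0.22, 0.40 and 0.28 against 0.54, 0.65 and 0.65 for the large. Without the 14 members whose exons overlap another gene, an alternative chosen after seeing the data, the large and small subunit medians were -0.24 and -0.40 for the quadruple mutant. No test was made of these differences, because the genes of a subunit are not replicates.

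**Figure D2:**
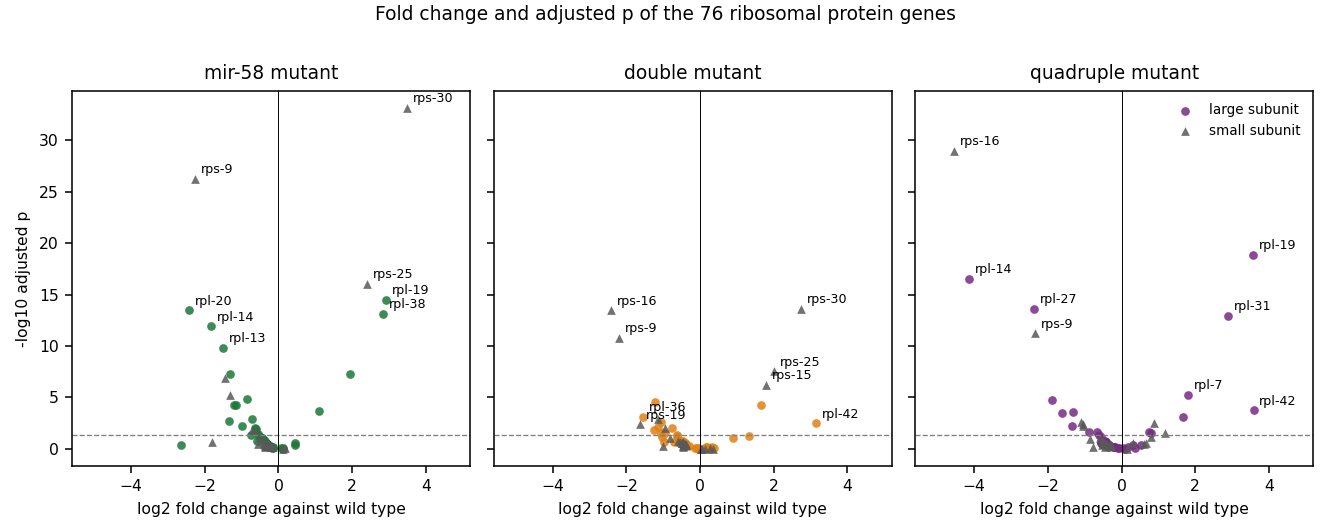
Log2 fold change against wild type (horizontal axis) and -log10 of the adjusted p-value (vertical axis) of the 76 genes in each mutant, circles for the large and triangles for the small subunit, with the dashed line at 0.05 and up to 4 called genes named on each side. The small subunit genes rps-30, rps-9 and rps-16 reach the smallest adjusted p-values.

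Direction was kept in all 3 mutants by 54 of the 76 genes (71.1%). Of these, 46 were below 0 throughout (60.5%), beside 29.1% of all listed genes, and 8 above 0 (10.5%), beside 28.6%. By subunit, 26 of 45 large and 20 of 31 small subunit genes were below 0 throughout, and 5 and 3 were above. The 8 were rpl-12, rpl-19, rpl-31, rpl-38, rpl-43, rps-25, rps-27 and rps-30. Most of these 54 directions rest on values that were not called. Calls in the same direction in all 3 mutants were found for 5 lower genes, rpl-10, rpl-16, rpl-27, rpl-36 and rps-9, beside 1.29% of all listed genes, and for 1 higher gene, rps-30, beside 0.754%. Because the 3 comparisons share the wild type samples, a deviation of those samples would appear in every mutant with the same sign. The remaining 22 genes changed sign or stood at 0 in some mutant, among them rpl-42, rpl-7, rpl-26, rps-14, rps-15 and rps-19.

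**Figure D3:**
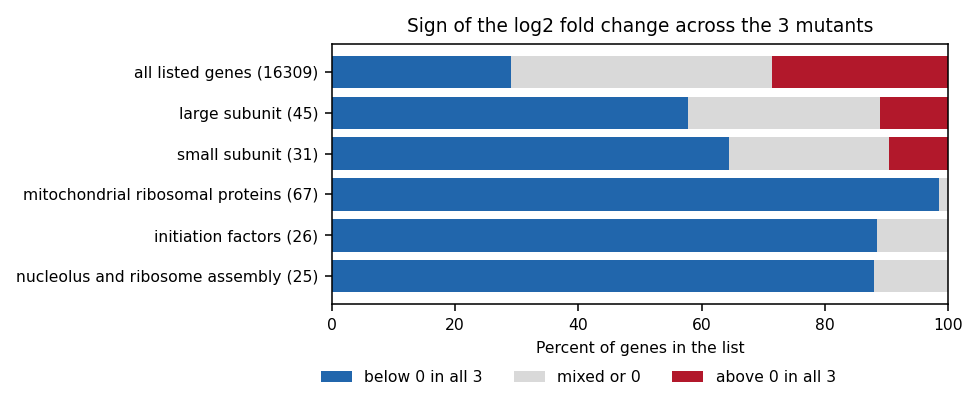
Percent of the genes in each list (horizontal axis; number of genes in brackets) whose log2 fold change was below 0 in all 3 mutants, above 0 in all 3, or neither. Of the large and small subunit genes 57.8% and 64.5% were below 0 throughout, against 29.1% of all listed genes and 98.5% of mitochondrial ribosomal protein genes.

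The mutants were also set against each other through differences of their fold changes on the log2 scale, which no longer contain the wild type; these have no test. Adding the mir-80 deletion to mir-58 gave a median difference of -0.09 over the members. Meanwhile the median of all listed genes went up, from -0.06 to 0.08. Centred on these medians, the family median went from -0.28 to -0.54, so it was lower in the double mutant relative to all genes. By 1 or more on the log2 scale, 15 genes moved, 8 up and 7 down. How many of all listed genes moved as far was not counted, here or for the next step. Up went rpl-42 (5.81), rps-15 (2.34), rpl-7 (1.84) and rps-14 (1.5), and down rpl-38 (-2.47), rps-16 (-2.09), rpl-31 (-1.74) and rpl-19 (-1.61). From the double to the quadruple mutant the median difference was 0.01, and 16 genes moved by 1 or more, 8 each way. The largest rises were those of rpl-31 (2.67), rps-19 (2.42) and rpl-19 (2.24), and the largest drops those of rpl-14 (-3.13) and rps-16 (-2.13). Collection was 6 h later in the double than in mir-58, and later again in the quadruple mutant, so these differences also contain age.

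Copies of the same protein had different values and calls, a difference that was not tested. The pair rpl-11.1 and rpl-11.2, which bind the 5S RNA, stood at -0.64, 0.02 and -0.10 and at -0.36, -0.63 and -0.62 according to the authors' deposited table. The authors' deposited table calls the first lower in mir-58 only (adjusted p = 8.92e-03) and the second in both multiple mutants (adjusted p = 0.0424 and 0.0473). For rpl-25.1 the authors' deposited table shows -1.35, -0.97 and 0.52, called for mir-58 (adjusted p = 2.15e-03), and for rpl-25.2 it gives -0.45, -0.30 and -0.21, with none. Reads shared between copies could have been split or dropped in the authors' counting, which is not given in the sources used here, so these values are less certain than the rest.

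Ribosomal proteins that carry other names were looked at beside the family. Of the 6 names on that list 5 were in the table. The genes ubq-2 and ubl-1, each encoding ubiquitin or a ubiquitin-like protein fused to a ribosomal protein, were at -0.42, -1.72 and -1.70 and at -1.19, -1.26 and -1.72 according to the authors' deposited table. Like rps-9, ubl-1 fell in every mutant of the authors' deposited table (adjusted p = 6.48e-05, 5.75e-03 and 4.09e-04), and ubq-2 fell in both multiple mutants. A protein of the stalk that recruits elongation factors, rla-1, stood at 0.43, 2.73 and -0.49 by the authors' deposited table, with a rise called for the double mutant alone (adjusted p = 5.09e-07). Its partner rla-2 and the scaffold gene rack-1 lay between -0.77 and -0.18 according to the authors' deposited table and were not called.

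Other lists of protein synthesis genes also had medians below 0, over a narrower range of values. Mitochondrial ribosomal proteins, which serve the separate ribosomes of mitochondria, are listed under sequence names, and 67 of 70 annotated genes were in the table. In the quadruple mutant 53 of the 67 fell and none rose, with a median of -0.80 and a range of -1.33 to -0.08. In the double mutant 18 fell and in mir-58 1 did. The lower shares were 1.49%, 26.9% and 79.1%, beside 5.79%, 5.86% and 9.82% of all genes, so below the background in mir-58. Between the lowest and the highest decile the mitochondrial genes spread over 0.27, 0.40 and 0.57, against 1.65, 1.46 and 2.01 for the cytosolic family. All listed genes spread over 1.41, 2.33 and 2.79, so the cytosolic family was narrower than these in both multiple mutants. Initiation factors, which bring the ribosome to the messenger RNA, had 2, 4 and 12 of 26 genes lower and none higher, at medians of -0.26, -0.44 and -0.66. Their shares of lower genes were 7.69%, 15.4% and 46.2%, the first close to the 5.79% of all genes. The cap-binding factor gene ife-2 was at -0.32, -0.83 and -0.85 and the helicase factor gene inf-1 at -0.21, -0.52 and -0.82 by the authors' deposited table. The smallest adjusted p-values of this list were those of eif-3.J and iff-1. By the authors' deposited table eif-3.J stood at -0.5, -0.73 and -1.03, and iff-1 at -0.76, -0.05 and -0.18. Among 25 genes of the nucleolus and of ribosome assembly 2, 1 and 8 fell and none rose (8.0%, 4.0% and 32.0%, beside 5.79%, 5.86% and 9.82% of all genes, so near the background in mir-58 and the double mutant), with the fibrillarin gene fib-1, which modifies ribosomal RNA, at -0.33, -0.58 and -0.87 according to the authors' deposited table. The cytosolic family was thus the one list of these 4 with higher calls, and unlike that of the mitochondrial list, its median was no lower in the quadruple than in the double mutant; neither difference was tested. Of 5 listed elongation factors 1 fell, in the quadruple mutant (20.0%, beside 9.82% of all genes). Of 13 genes of the TOR and S6 kinase pathway, which couples ribosome production to nutrients, 1 fell in the quadruple mutant (7.69%, below the 9.82% of all genes). It was the S6 kinase gene rsks-1, at -0.60 by the authors' deposited table (adjusted p = 0.0498). The medians of this pathway were -0.02, 0.06 and 0.12, close to those of all genes. Of 9 genes of nonsense-mediated decay, which removes unproductive messenger RNAs, only smg-1 was called, higher in every mutant at 0.77, 0.77 and 0.94 according to the authors' deposited table. This is 11.1% in each mutant, beside 1.65%, 10.5% and 14.2% of all genes, so not above the background in the quadruple and near it in the double. The medians of the decay genes were 0.01, 0.17 and 0.29, and thus not below 0.

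**Figure D4:**
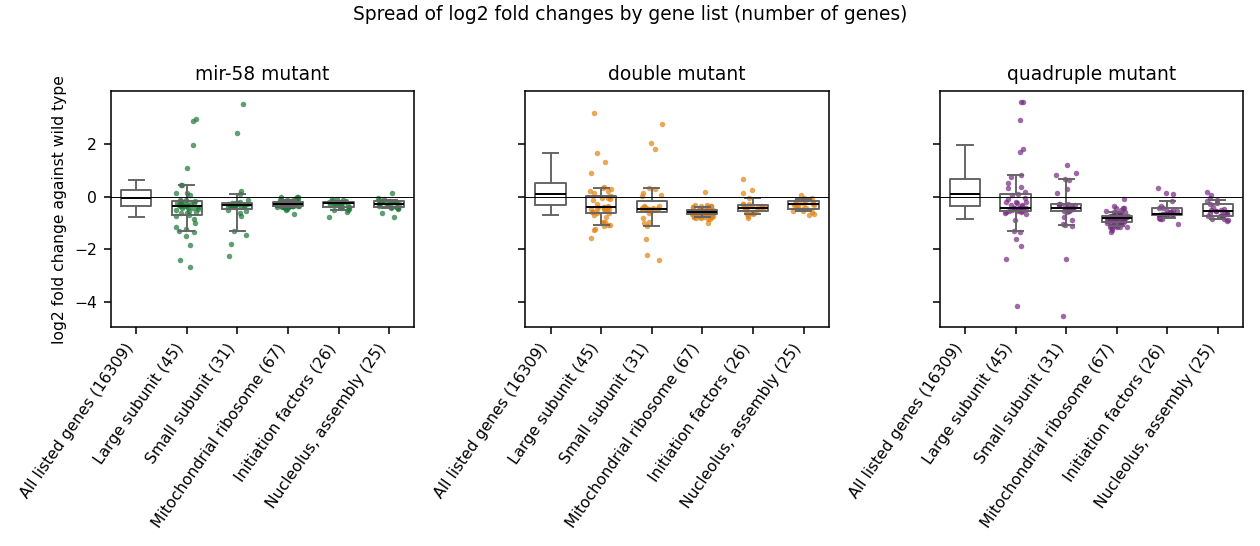
Log2 fold change against wild type (vertical axis) by gene list in each mutant; boxes show the quartiles and median, whiskers the lowest and highest deciles, and points single genes (not drawn for all listed genes). Large and small subunit genes scatter from -4.54 to 3.58 in the quadruple mutant, while mitochondrial ribosomal protein genes stay between -1.33 and -0.08.

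The size of a change that could be called differed from gene to gene. The smallest called values were those of rpl-30 in mir-58 (-0.56, adjusted p = 0.0332) and of rpl-11.2 in the double (-0.63) and quadruple mutant (-0.62) by the authors' deposited table. Larger values failed elsewhere: rps-28 stood at -1.80, -1.0 and -0.78 according to the authors' deposited table without a call (adjusted p = 0.238, 0.493 and 0.611), and rpl-42 at -2.65 in mir-58. The 35 members never called had medians of -0.30, -0.42 and -0.43, so the absence of a call does not show that they were at the wild type level.

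Some members lie where reads could be assigned to more than 1 gene. In the annotation 14 of the 75 members that could be matched have exons that overlap those of another gene, and whether the authors' counts used strand is not given. A gene on the opposite strand, T01C3.11, overlaps rps-16 and was at 0.22, -0.10 and 0.29 by the authors' deposited table; C04F12.5 overlaps rpl-14 and was at -0.68, -0.10 and -0.06; neither was called. The same holds for F53G12.9, on the strand of rpl-7, at -0.64, -0.44 and -0.34 according to the authors' deposited table. Among the listed overlapping genes only bcs-1, on the strand of rpl-5, was called. It fell in the quadruple mutant, at -0.73 by the authors' deposited table (adjusted p = 0.0308). Of the 14 overlapping members 6 were called at least once (42.9%), and of the other 61 members 34 were (55.7%). Small nucleolar RNA genes, which guide modification of ribosomal RNA, lie within 13 members, of which 7 were called (53.8%), as were 33 of 62 without one (53.2%). By exonic length, 17 of 37 shorter members (45.9%) and 23 of 38 longer ones (60.5%) were called, split at 542 bases. For changes of at least 2-fold in 1 or more mutants the order was the reverse, with 43.2% of the shorter and 34.2% of the longer members. Of all listed genes 27.1% were called at least once. Members are on all 6 chromosomes, with 21 on I, 9 on II, 18 on III, 17 on IV, 8 on V and 2 on X.

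Calls among markers of stage and tissue differed between the genotypes. Of all listed genes 1.65% rose and 5.79% fell in mir-58, 10.5% and 5.86% in the double, and 14.2% and 9.82% in the quadruple mutant. All 7 listed sperm genes fell in mir-58, between -3.96 and -2.79, and all 7 rose in the double (3.00 to 4.50) and quadruple mutant (2.95 to 4.45). Of 5 yolk genes 4 fell in mir-58, and 3 and 2 rose in the multiple mutants. Of 8 oocyte and eggshell genes 3 fell in mir-58 and 6 and 5 rose in the others, and of 8 germline genes 5 fell in mir-58 and 1 rose in each of the others. Of 3 adult cuticle genes 1 fell in mir-58 (33.3%), and 2 and 1 rose in the multiple mutants (66.7% and 33.3%). Body wall muscle markers fell in 3 of 3 cases in the quadruple mutant, at -1.43 to -0.71, and in none elsewhere. Of 4 intestinal markers 1 fell in the double mutant and 2 did in the quadruple, and of 4 neuronal markers 2 rose in mir-58 and 2 in the quadruple. The part of these shifts in the values of the ribosomal protein genes was not tested.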

How the data were processed

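RNA sequencing of whole late L4 animals covered 12 samples, 3 for each of 4 genotypes, grouped by their titles. The authors' deposited table holds, for 16309 gene names, log2 fold changes of the 3 mutants over wild type with an adjusted p-value for each, as its header states. Per the submitters' processing notes DESeq was used, with no version; how reads were aligned and counted, on which genome build, with which filters and with which p-value adjustment is not given in the sources used here. Values of single samples were not analysed, so depth is unknown, and the planned fit to counts was replaced by the authors' adjusted p-values over all genes.

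Calls, counts, medians and differences were computed from these values; lists received no test. The counting steps were tested on simulated data. Names were matched, ignoring case, to Ensembl release 115 of WBcel235, by symbol or sequence name. This matched 75 of 76 members; rpl-41 was not matched, and rpl-36.A, rpl-41.1 and rpl-41.2 are annotated but not listed. The annotation gave names, chromosomes, overlaps and exonic lengths; no coordinates or sequences are printed. Members and lists were chosen with earlier results of these data known. Named genes are members called in all 3 mutants or in opposite directions, the 5 highest and 5 lowest called per mutant, paralogs, and ribosomal proteins with other names. For comparison lists the plan was up to 4 genes by p-value, but inf-1 and fib-1 were named although other genes of their lists had smaller ones. Other members are named after their values were seen. Alternatives were an adjusted p under 0.01, a 1.5-fold minimum, centring on the median of all genes, and members with additions or omissions. Python 3.11.15, numpy 2.4.6, pandas 2.3.3 and matplotlib 3.10.9 were used.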

Additional observations from a re-analysis of the deposited data

How the results depend on the processing

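No paired analysis was possible because the table holds comparisons and not samples; for the same reason leaving out replicates, other normalisations and count filters were not run. At an adjusted p under 0.01 lower calls in the double mutant dropped to 9 (5 of the large subunit), lower calls of the small subunit in mir-58 to 3, higher calls of the small subunit in the quadruple mutant to 1, and genes higher in all 3 mutants to 0, as rps-30 missed this threshold in the quadruple mutant. The other 15 counts stayed within 1.5 times, and 16 of 67 single calls were lost. With a 1.5-fold minimum 1 single call was lost (rpl-30 in mir-58). Centring on the median of all genes, a shift of -0.06, 0.08 and 0.11, could not change a call, since it keeps the p-values and is smaller than every called value; genes below 0 in all 3 mutants became 50 in place of 46. Adding rla-1, rla-2, ubl-1 and ubq-2 moved no count or median that far. Without the genes that share their number with another (rpl-7, rpl-11, rpl-24, rpl-25 and rpl-41), and likewise without those whose exons overlap another gene (chosen after seeing the data), 1 large subunit gene rose in the double mutant in place of 2. Without overlapping genes 3 small subunit genes fell in the quadruple mutant in place of 5, and the large subunit median there was -0.24, and not -0.42.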
